A study of Mus musculus with 6 samples.

Results

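Aminoacyl-tRNA synthetases are the enzymes that join each amino acid to its transfer RNA, and the levels of their mRNAs were followed here in libraries labelled neutrophil from tumours grown from Hepa1-6 cells, a hepatoma line of the mouse, although hepatoma markers exceeded neutrophil markers in each of them. The family comprised 38 of the 21959 genes in the deposited table: 18 cytosolic synthetases or synthetase subunits, 16 mitochondrial synthetases, 2 synthetases that serve both compartments and 2 scaffold proteins of the multi-synthetase complex. RNA-seq compared 3 GPR35-positive with 3 GPR35-negative libraries, GPR35 being a G protein-coupled receptor. The labels name mouse, neutrophil and the Hepa1-6 tumour model for all 6 libraries and give no strain, age or treatment, and the sources used here do not give how cells were divided by GPR35. Nothing in the labels says that the libraries of a group came from separate animals, so a p-value here reflects only how far these samples scatter, and that scatter may be technical. The members were chosen by enzyme name, but the family was put forward with fold changes between these same 6 libraries in view and so counts as selected on them. Differences of the members between the groups, and whether a member passed the threshold that was applied to all genes, are therefore given as a description, and nothing about the family is tested by them.

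Each synthetase recognises 1 amino acid and the transfer RNAs that carry it, and activates the amino acid with ATP before transfer. Cytosolic and mitochondrial translation mostly use separate enzymes, all encoded in the nucleus, and the mitochondrial forms usually carry a name ending in 2. Several cytosolic enzymes are held together with the scaffold proteins AIMP1, AIMP2 and EEF1E1 in the multi-synthetase complex. Many cytosolic synthetase genes are known targets of ATF4, the transcription factor that is translated when the kinase GCN2 senses uncharged transfer RNA.

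The C/EBP-ATF core is the sequence that dimers of ATF4 with a C/EBP factor bind, so promoters of members that hold it are shown first, beside that of Iars2, which had the largest log2 fall of the mitochondrial class and holds no match. Each sequence is 5′ to 3′ on the strand of its gene and runs from 130 bases before to 20 bases after the RefSeq transcription start, in GRCm38.p6. Capitals mark the core TGATGNAA, N being any base, read on either strand. Aars (chr8:111033712-111033861, forward strand) encodes the cytosolic alanine enzyme, Gars (chr6:55037871-55038020, forward strand) the glycine enzyme of both compartments, Iars (chr13:49682000-49682149, forward strand) the cytosolic isoleucine enzyme, Tars (chr15:11399639-11399788, reverse strand) the cytosolic threonine enzyme, Yars (chr4:129189773-129189922, forward strand) the cytosolic tyrosine enzyme and Iars2 (chr1:185329382-185329531, reverse strand) the mitochondrial isoleucine enzyme.
Aars: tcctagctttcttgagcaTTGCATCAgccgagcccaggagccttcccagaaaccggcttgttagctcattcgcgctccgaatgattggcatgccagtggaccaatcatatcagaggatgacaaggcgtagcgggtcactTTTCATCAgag
Gars: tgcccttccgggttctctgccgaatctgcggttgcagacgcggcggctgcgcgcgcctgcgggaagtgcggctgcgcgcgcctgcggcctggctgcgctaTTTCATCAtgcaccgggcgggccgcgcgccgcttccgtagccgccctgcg
Iars: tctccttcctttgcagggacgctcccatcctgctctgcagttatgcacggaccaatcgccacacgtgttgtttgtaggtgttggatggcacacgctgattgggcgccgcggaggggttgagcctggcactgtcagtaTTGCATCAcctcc
Tars: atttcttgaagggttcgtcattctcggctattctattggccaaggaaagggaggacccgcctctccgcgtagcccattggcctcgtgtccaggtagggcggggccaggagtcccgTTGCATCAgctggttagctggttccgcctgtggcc
Yars: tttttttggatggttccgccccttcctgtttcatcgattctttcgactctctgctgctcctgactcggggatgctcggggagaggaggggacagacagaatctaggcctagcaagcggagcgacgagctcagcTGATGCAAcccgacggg
Iars2: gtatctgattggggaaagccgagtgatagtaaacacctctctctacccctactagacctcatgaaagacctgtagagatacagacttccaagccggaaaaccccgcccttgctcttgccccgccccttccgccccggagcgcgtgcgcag

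RefSeq promoter windows of 300 bases ran from 250 before to 50 after the start. Looked up by gene symbol, they were found for 29 of the 38 members, with more than 1 window for Aars2 and Aimp1. None was found for Cars, Hars, Hars2, Lars, Nars, Pars2, Rars, Vars and Wars, which does not show that these genes lack one. Windows covered 11 of the 18 cytosolic and 14 of the 16 mitochondrial genes, so the cytosolic counts below are less complete. The C/EBP-ATF core TGATGNAA was in 5 of the 29 members (17.2%) and in 4.51% of the 27025 genes with such a window, a gene being counted when any of its windows held it. It was in 4 of 11 cytosolic genes, in the dual enzyme Gars and in 0 of 14 mitochondrial genes. Of all genes, 4163 had more than 1 window. Counting the start as base 1, the match began at base -112 and again at base 10 in Aars, at -30 in Gars, at 8 in Iars, at -15 in Tars and at 4 in Yars. The NRF1 core GCATGCGC, the letters bound by a regulator of nuclear genes for mitochondrial proteins, was in 0 of 11 cytosolic and 3 of 14 mitochondrial genes, Rars2, Vars2 and Wars2, against 3.05% of all genes. The ETS core CCGGAAGT was in 4 of 29 members, against 4.31% of all genes, and the CCAAT box, letters CCAAT, in 15 of 29, against 41.1%. All were searched on both strands, and no C/EBP-ATF match overlapped a match of the other 3 motifs. The ratio of mean level in GPR35-positive to GPR35-negative libraries of the 5 genes with the C/EBP-ATF core was 0.605 for Gars, 0.624 for Iars, 0.697 for Tars, 0.737 for Yars and 0.863 for Aars. A match shows only that these letters are in the window.

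The libraries held 15742744 to 18314104 reads assigned to genes, and the members were covered by 47 to 12955 reads per library. Where a gene has 6 values, replicates 1, 2 and 3 of the GPR35-negative libraries come first. Levels are FPKM, fragments scaled to the exon length of each gene and the depth of its library, as the authors deposited them. Gpr35 checks the labels: it was at 2.03, 1.378 and 1.30 FPKM in the libraries labelled negative and at 18.2, 21.9 and 20.4 FPKM in those labelled positive. Of the cell type label, summed markers of mature neutrophils ranged from 944 to 1199 FPKM in the negative and from 10097 to 11055 FPKM in the positive group, led by S100a8 and S100a9. Summed hepatocyte and hepatoma markers, which neutrophils are not known for, were larger in every library, at 25929 to 27416 FPKM in the negative against 17303 to 17726 FPKM in the positive group, led by Trf and Krt18. Macrophage and monocyte markers summed to 51.0 to 69.5 FPKM and 1346 to 1383 FPKM, led by Ctss and C1qb. No gene of these 3 lists was at 0 in all libraries. Fewer cells of a type and less RNA per cell cannot be told apart in such bulk samples.

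A gene was called when limma-trend, fitted to log2(FPKM + 1) of all 10060 genes tested, gave a Benjamini-Hochberg adjusted p under 0.05. Across all genes tested 45.5% were called lower in GPR35-positive libraries and 23.3% higher, and the median log2 fold change was -0.19. All 38 members were tested. Of them 30 were called lower, 0 higher and 8 neither. These 8 were Qars, Aars and Rars of the cytosolic class and Lars2, Mars2, Nars2, Rars2 and Yars2 of the mitochondrial class. The median log2 fold change of the members was -0.38, the median ratio of mean FPKM was 0.744 against 0.852 over all genes tested, and the ratio was under 1 in 37 of 38. In 32 members all GPR35-positive libraries were below all GPR35-negative ones, as in 48.2% of genes tested. Summed over the family, FPKM was 1107, 1115 and 1089 in GPR35-negative and 803, 826 and 816 in GPR35-positive libraries. The members' 0.744 stood between the ratio of all genes and the 0.657 of summed hepatocyte and hepatoma markers, and 8 members were below and 30 above that marker ratio. Summed proliferation markers had a ratio of 0.723, with 8 of 10 called lower. The part of these markers in the members' difference was not tested.

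How the table is scaled moved these values. With median-of-ratios scaling, which sets the libraries level by the typical gene in place of the total, the median of all genes tested shifted by 0.12 to -0.07. The share of calls in the higher direction went from 33.9% to 47.4%, with 2731 genes higher and 3036 (30.2%) lower. Under that scaling 23 members were called lower and 0 higher, and their median log2 fold change was -0.25.

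**Figure D1:**
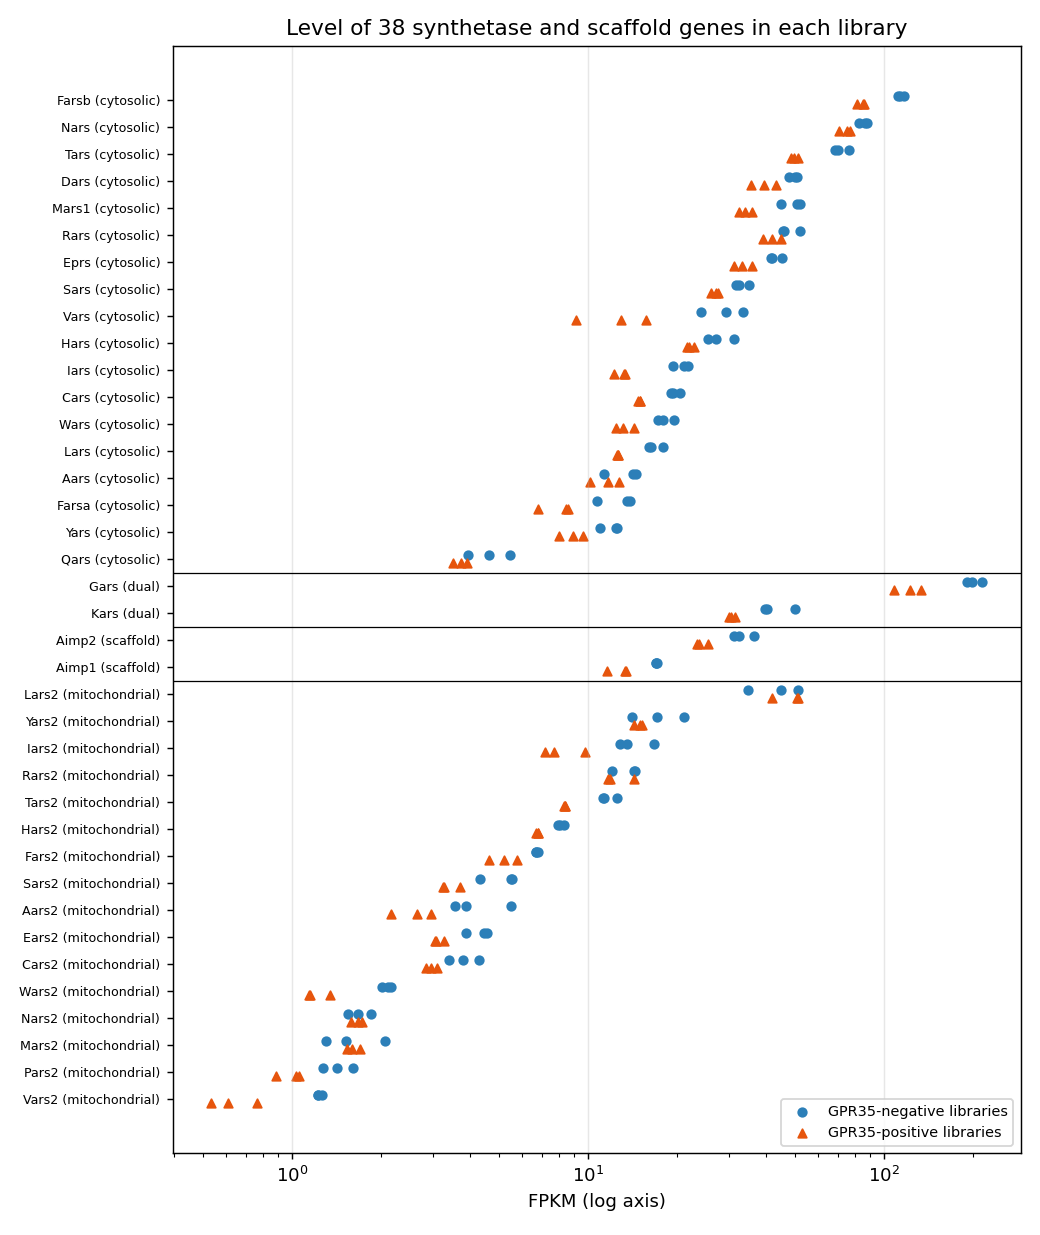
Level of each of the 38 members in FPKM on a log axis, with a point for each of the 3 GPR35-negative and 3 GPR35-positive libraries, by class. Gars is highest, near 201 FPKM in GPR35-negative libraries, Vars2 lowest, near 1.24 FPKM, and the 2 sets of points do not overlap in most members.

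Among the cytosolic synthetases 15 of 18 were called lower, beside 45.5% of all genes tested, and in 17 the GPR35-positive libraries were all below the others, beside 48.2%. Their median ratio was 0.755 with a range from 0.435 to 0.875, and their summed FPKM was 688, 666 and 651 in GPR35-negative against 509, 500.2 and 502 in GPR35-positive libraries. The median log2 fold change was -0.38, and -0.25 with median-of-ratios scaling, under which 11 of 18 were called lower, beside 30.2% of all genes.

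Vars, which encodes the cytosolic valine enzyme (chr17:35000987-35016322 in GRCm38, forward strand), had the lowest ratio of the family. It was at 29.2, 33.5 and 24.1 FPKM in the 3 GPR35-negative libraries and at 9.13, 15.7 and 12.9 FPKM in the 3 GPR35-positive ones. Every GPR35-positive library was below every GPR35-negative one, and the GPR35-positive values also differed from each other by more than in most members. The mean went from 28.9 ± 4.70 to 12.6 ± 3.29 FPKM (SD, n = 3), a ratio of 0.435 and a log2 fold change of -1.16. Vars was also the 1 member called lower when a change of at least 2-fold was required, as were 21 of all genes tested.

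Iars, for isoleucine (chr13:49682100-49734267, forward strand), was at 21.03, 21.8 and 19.4 FPKM in the 3 GPR35-negative libraries and at 12.2, 13.4 and 13.2 FPKM in the 3 GPR35-positive ones, a ratio of 0.624. Farsa, the alpha subunit of the phenylalanine enzyme (chr8:84856989-84869257, forward strand), was at 13.9, 13.5 and 10.7 FPKM against 6.78, 8.41 and 8.58 FPKM, also a ratio of 0.624. Mars1, for methionine (chr10:127296221-127311786, reverse strand), was at 51.9, 50.7 and 44.8 FPKM against 32.3, 35.9 and 33.9 FPKM, a ratio of 0.693. In these 3 genes the groups were apart by more than the range within either group, except in Farsa, where the GPR35-negative range was wider than the gap.

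The other end of the cytosolic class differed little between groups. Rars, for arginine, was at 52.1, 45.6 and 46.1 FPKM in the 3 GPR35-negative libraries and at 45.0, 38.9 and 42.0 FPKM in the 3 GPR35-positive ones, a ratio of 0.875. Aars, for alanine, was at 14.5, 14.2 and 11.4 FPKM against 10.2, 12.7 and 11.7 FPKM, a ratio of 0.863. Aars was the 1 cytosolic member whose groups overlapped, and the highest GPR35-positive library of Rars was just below its lowest GPR35-negative one.

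Nars, for asparagine, was at 87.8, 86.4 and 82.7 FPKM in the 3 GPR35-negative libraries and at 76.9, 74.8 and 70.6 FPKM in the 3 GPR35-positive ones, a ratio of 0.865, and was called lower. Qars, for glutamine, was at 5.47, 4.62 and 3.93 FPKM against 3.49, 3.91 and 3.73 FPKM, a ratio of 0.794. Qars sat just outside the call, with a log2 fold change of -0.26, while Nars sat inside it with -0.21, its libraries lying closer together. The remaining 10 cytosolic members were all called lower, with ratios from 0.697 in Tars, for threonine, to 0.816 in Sars, for serine.

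Phenylalanine is the 1 amino acid whose cytosolic enzyme is built from 2 different gene products, Farsa and Farsb, in equal parts. Farsb was at 117, 112 and 113 FPKM in the 3 GPR35-negative libraries and at 85.6, 80.8 and 85.3 FPKM in the 3 GPR35-positive ones, a ratio of 0.736. The FPKM of Farsb was 8.42, 8.27 and 10.6 times that of Farsa in the GPR35-negative and 12.6, 9.61 and 9.94 times in the GPR35-positive libraries. The mRNAs of the subunits were thus unequal in every library on this scale. Part of that distance came with gene length as counted: per kilobase of the principal transcript of each gene, Farsb was 4.65 times Farsa in GPR35-negative and 5.48 times in GPR35-positive libraries.

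Both enzymes that serve cytosol and mitochondria were called lower. Gars, for glycine (chr6:55038007-55079500, forward strand), was the most abundant member, at 190.1, 214 and 198 FPKM in the 3 GPR35-negative libraries and at 108, 134 and 123 FPKM in the 3 GPR35-positive ones, a ratio of 0.605 and a log2 fold change of -0.72. It made up 17.2% to 19.2% of the family's summed FPKM in GPR35-negative and 13.5% to 16.2% in GPR35-positive libraries. Kars, for lysine, was at 49.9, 40.4 and 39.6 FPKM against 30.1, 30.5 and 31.5 FPKM, a ratio of 0.708.

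Of the 16 mitochondrial synthetases 11 were called lower and 5 were not, beside 45.5% of all genes tested called lower. The 11 include Vars2, which was tested only because its GPR35-negative values met the filter of 1 FPKM in 3 libraries. The count was 7 without GPR35-negative replicate 2, and 8 with median-of-ratios scaling, beside 30.2% of all genes. Their median ratio was 0.752, close to the 0.755 of the cytosolic class, but the range was wider, from 0.514 in Vars2 to 1.10 in Lars2. The median log2 fold change was -0.30. These mRNAs were also less abundant, with a median GPR35-negative level of 4.71 FPKM against 28.4 FPKM in the cytosolic class.

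Iars2, for isoleucine (chr1:185284726-185329396, reverse strand), was at 12.8, 16.7 and 13.5 FPKM in the 3 GPR35-negative libraries and at 7.19, 9.75 and 7.70 FPKM in the 3 GPR35-positive ones, a ratio of 0.573. Aars2, for alanine, was at 3.55, 5.49 and 3.87 FPKM against 2.16, 2.94 and 2.64 FPKM, a ratio of 0.599. Wars2, for tryptophan, was at 2.02, 2.15 and 2.105 FPKM against 1.15, 1.35 and 1.14 FPKM, a ratio of 0.579. All 3 were lower in every GPR35-positive library, with replicate 2 the highest of both groups in each gene.

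Vars2, for valine, is the lowest-level member and had the lowest mitochondrial ratio, at 1.22, 1.26 and 1.22 FPKM in the 3 GPR35-negative libraries and at 0.535, 0.763 and 0.610 FPKM in the 3 GPR35-positive ones. Its ratio was 0.514, while its log2 fold change of -0.45 understates that because 1 FPKM is added before the logarithm. Both valine enzymes thus had the lowest ratio of their class. Vars2 was under 1 FPKM in every GPR35-positive library. It therefore met the filter of 1 FPKM in 3 libraries only through the GPR35-negative group, where it is high, and its call carries that limit.

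Lars2, for leucine (chr9:123366927-123462666, forward strand), was the 1 member with a mean above that of GPR35-negative libraries. It was at 34.8, 44.8 and 51.3 FPKM in the 3 GPR35-negative libraries and at 41.9, 51.2 and 50.8 FPKM in the 3 GPR35-positive ones, with overlapping groups and a ratio of 1.10. The log2 fold change was 0.15, and without GPR35-negative replicate 1 it was near 0, at -0.00469. Lars2 was far above the other mitochondrial members and made up 27.7% to 34.0% of their summed FPKM in GPR35-negative and 35.9% to 41.3% in GPR35-positive libraries. With it the summed mitochondrial FPKM had a ratio of 0.866, and without it 0.761.

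Mars2, for methionine, was at 1.52, 2.06 and 1.30 FPKM in the 3 GPR35-negative libraries and at 1.53, 1.69 and 1.59 FPKM in the 3 GPR35-positive ones. Nars2, for asparagine, was at 1.85, 1.68 and 1.54 FPKM against 1.58, 1.72 and 1.68 FPKM. Both had a ratio of 0.98 to 2 digits, 0.985 and 0.984, and the values of the groups were interleaved. Rars2 (0.931) and Yars2 (0.853) were the other uncalled mitochondrial members, and their groups overlapped too.

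**Figure D2:**
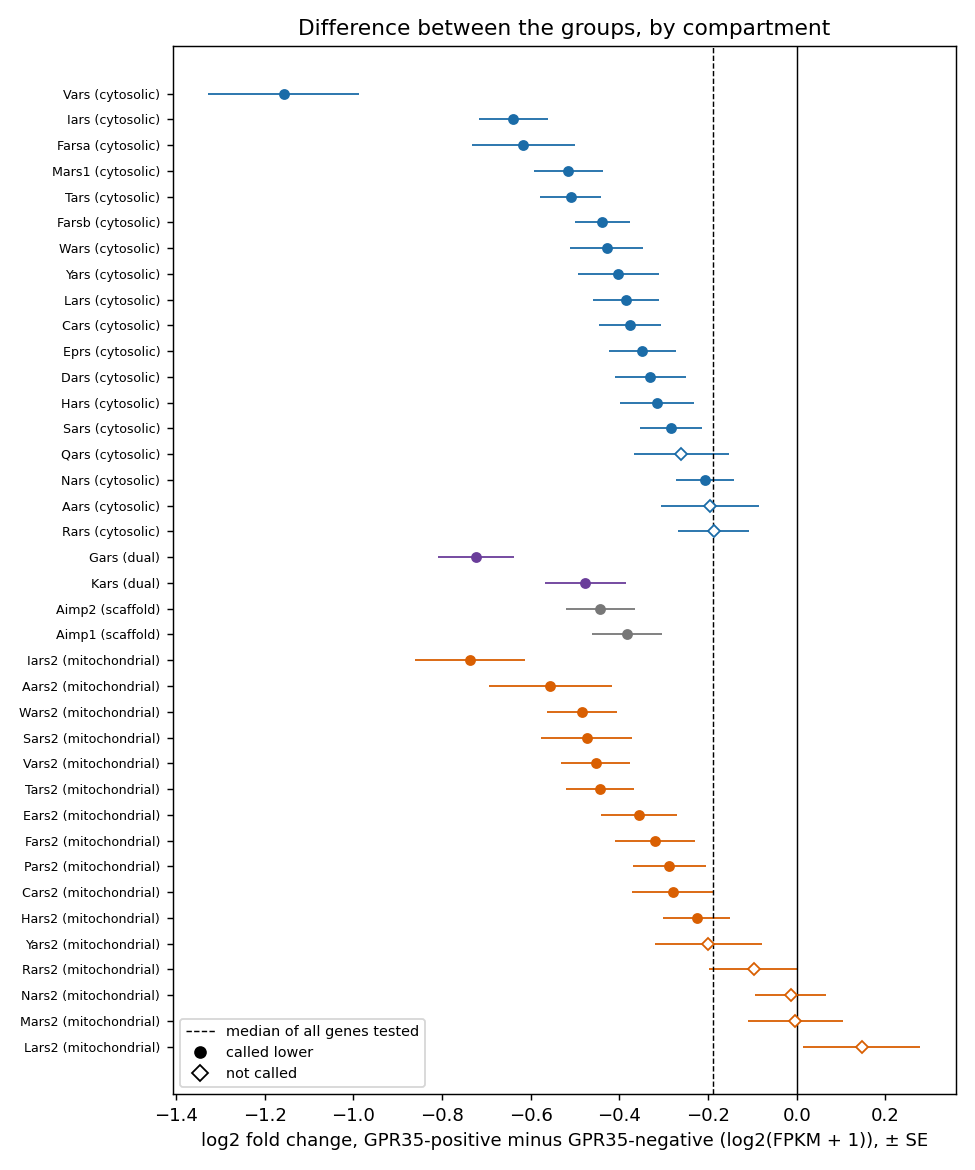
Log2 fold change of each member between GPR35-positive and GPR35-negative libraries on the log2(FPKM + 1) scale, with bars for 1 standard error and filled points for called members. Vars lies lowest at -1.16, Lars2 is the 1 member above 0, at 0.15, and the dashed line marks the median of all genes tested, -0.19.

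Cytosolic and mitochondrial enzymes were compared as classes and by amino acid. The class medians differed by -0.08 on the log2 scale, cytosolic minus mitochondrial, with values of -0.04 under median-of-ratios scaling, -0.13 after removal of a trend on GC content and gene length, and 0.0026 with 0.1 in place of 1 FPKM added. A difference between the classes was thus not stable in sign. The mean log2(FPKM + 1) of the cytosolic class was above that of the mitochondrial class by 2.27, 2.08 and 2.06 in the GPR35-negative and by 2.02, 1.996 and 2.02 in the GPR35-positive libraries. Every GPR35-positive value was below every GPR35-negative one, but replicates 2 and 3 of the GPR35-negative group lay within 0.1 of the GPR35-positive values. The added 1 FPKM also compresses changes in the less abundant mitochondrial class. Summed cytosolic over summed mitochondrial FPKM, with nothing added, was 5.48, 4.53 and 4.32 in GPR35-negative and 4.37, 3.95 and 4.08 in GPR35-positive libraries. On that measure, which weighs abundant genes such as Lars2 most, the groups overlapped.

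By amino acid, 15 pairs of a cytosolic gene and its mitochondrial counterpart could be formed, with Farsa and Farsb both set against Fars2. The cytosolic gene had the lower ratio in 11 pairs and the mitochondrial gene in 4, those for alanine, isoleucine, serine and tryptophan. Gaps in log2 fold change were -0.53 for Lars against Lars2 and -0.51 for Mars1 against Mars2, and -0.56 and -0.53 with 0.1 FPKM added. The gap of Vars against Vars2 was -0.70 with 1 FPKM added but -0.34 with 0.1, since the added value compresses the change of Vars2. The opposite gap was widest for Aars against Aars2, at 0.36, and 0.49 with 0.1 FPKM added. In 13 of 15 pairs the cytosolic mRNA was the more abundant per kilobase. The exceptions were leucine, where Lars stood at 0.384 of the FPKM of Lars2 in GPR35-negative libraries, and tyrosine, where Yars stood at 0.689 of that of Yars2.

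**Figure D3:**
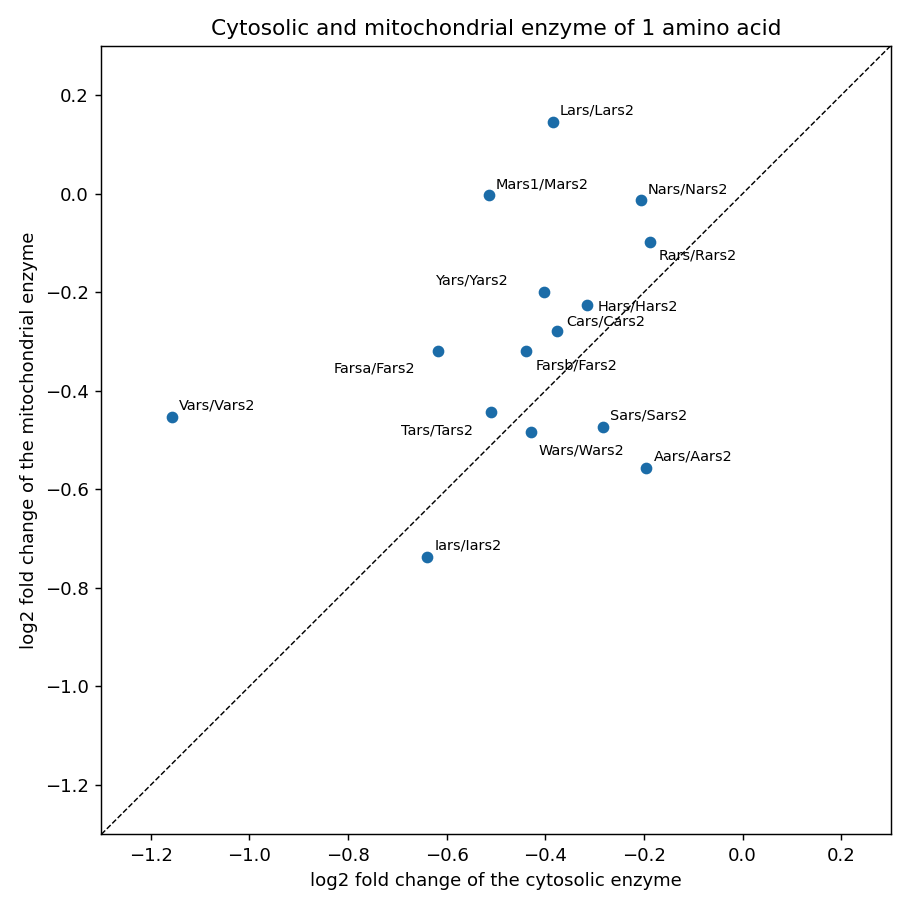
Log2 fold change of the cytosolic gene (x axis) against that of the mitochondrial gene for the same amino acid (y axis), 1 point for each of 15 pairs, both on the log2(FPKM + 1) scale, with the line of equal change dashed. The 11 pairs above the line include leucine and methionine, whose mitochondrial genes lie near 0, and the 4 below it include alanine.

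Both scaffold proteins of the multi-synthetase complex in the family were called lower. Aimp1 was at 17.1, 17.0 and 16.9 FPKM in the 3 GPR35-negative libraries and at 13.3, 11.6 and 13.5 FPKM in the 3 GPR35-positive ones, a ratio of 0.754. Aimp2 was at 36.3, 31.2 and 32.4 FPKM against 25.4, 23.8 and 23.4 FPKM, a ratio of 0.727. The scaffold gene outside the family list, Eef1e1, was at 30.5, 32.6 and 31.9 FPKM against 26.7, 23.5 and 25.2 FPKM and fell (log2 fold change -0.32, SE 0.07, limma adjusted p = 0.00297), though not past the threshold under median-of-ratios scaling. Grouping by complex separated little. Of the 10 complex members of the family 8 were called lower, with a median of -0.38 on the log2 scale. Of the 12 cytosolic or dual synthetases outside the complex 11 were, with -0.42, beside 45.5% of all genes tested. With median-of-ratios scaling the counts were 7 and 8, beside 30.2% of all genes.

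Other ways to divide the enzymes gave medians close to each other too. The 2 structural classes of synthetase, which fold their catalytic domains differently, had 12 of 18 (class I) and 15 of 17 (class II) called lower. Their medians were -0.38 and -0.33. With median-of-ratios scaling 11 and 9 were called lower, so that the order of the shares depends on the scaling. Eprs, the joint glutamate and proline enzyme, was counted in neither class and was called lower under both scalings. The 12 synthetases described as ATF4 targets had 11 called lower and a median of -0.39, beside 6 of 8 and -0.38 for the other cytosolic or dual enzymes. With median-of-ratios scaling 9 of 12 and 4 of 8 were called lower. Over all genes tested 45.5% were called lower, and 30.2% with that scaling.

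Some properties of the genes themselves bear on how the levels can be read. FPKM here are per kilobase of all exons of a gene joined together, and in 14 members that length is over 2 times that of the principal transcript, so levels between genes depend on which length is used. Per kilobase of principal transcript, Gars stayed highest in GPR35-negative libraries at 263, followed by Eprs, the joint glutamate and proline enzyme, at 158, Farsb at 147, Nars at 136 and Lars2 at 124, with Vars2 lowest at 1.52. Exons of Iars2 overlapped genes on the opposite strand over 24.2% of their bases and those of Aimp2 over 29.4%, the latter with Eif2ak1, and those of Aars overlapped Exosc6 on the same strand over 14.3%. The sources used here do not give whether reads were counted by strand, so the values of Iars2 and Aimp2 are uncertain. That of Aars is uncertain either way, its overlap being on the same strand. Smaller opposite-strand overlaps, such as 10.7% in Fars2, 9.47% in Farsb and 8.52% in Vars2, carry the same limit. Hars and Hars2, whose first exons overlap on opposite strands, share 7.97% and 4.56% of their exon bases. In the annotated exons Vars and Lars2 shared no 75-base stretch with another gene. Sequence outside annotated transcripts was not searched, so this does not show that their reads are free of other sources.

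GC content moved with the differences. GC content here is that of the longest transcript of each gene. Over the 38 members, log2 fold change and GC content had a Pearson correlation of -0.40 and a Spearman correlation of -0.33. Over the 10053 genes tested with a GC value these were -0.11 and -0.21. These points share the same 6 libraries. The libraries of 1 group also differed along GC: the Spearman correlation of a member's deviation from its group mean with GC content was -0.51 in GPR35-positive replicate 1 and 0.55 in GPR35-positive replicate 2, and over all genes tested -0.39 and 0.34. Vars, at 60.9% the member with the highest GC content, was lowest in the first of these libraries and highest in the second. When a trend on GC content and gene length over all genes was removed, the members' median was -0.31, that of Vars was -0.84, Aars2 (60.0% GC) went from -0.56 to -0.28, Vars2 (58.6%) from -0.45 to -0.22, and Sars2 (60.1%) from -0.47 to -0.22, where it no longer passed. What part base composition has in the members' difference was not tested further.

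**Figure D4:**
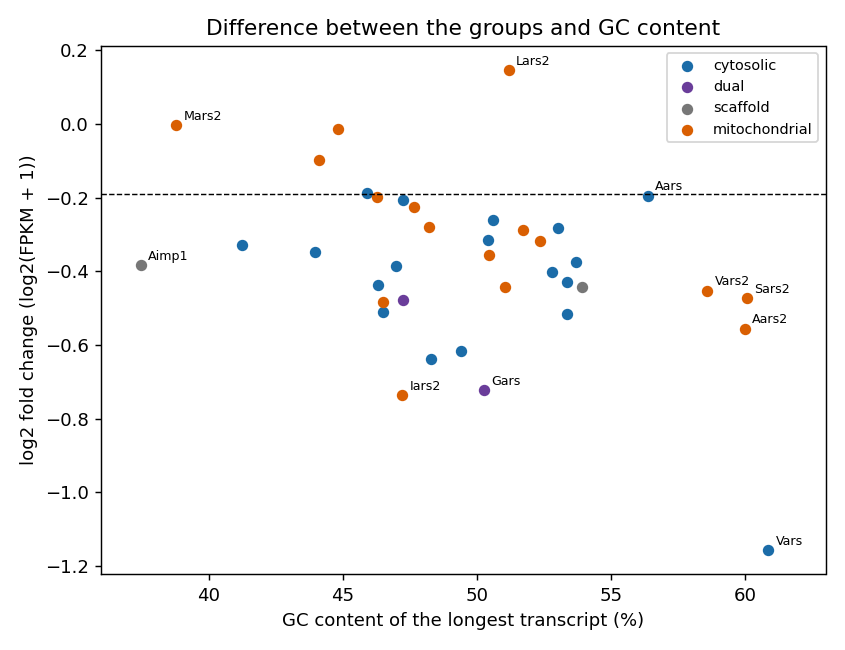
GC content of the longest transcript in percent (x axis) against log2 fold change on the log2(FPKM + 1) scale (y axis) for the 38 members, coloured by class, with the median of all genes tested dashed at -0.19. Vars lies alone at the lower right, at 60.9% GC and -1.16.

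Of 14 other genes for transfer RNA charging, among them enzymes that edit or amidate charged transfer RNA, 11 were tested, of which 7 fell (4 with median-of-ratios scaling) and 1, Prorsd1, rose. Beside this list and the next, 45.5% of all genes tested fell and 23.3% rose, and 30.2% fell with that scaling. Gatc, a subunit of the mitochondrial amidotransferase that makes glutaminyl-tRNA, fell from 8.66 ± 0.86 to 5.95 ± 0.596 FPKM (SD, n = 3). Dtd1, which strips D-amino acids from transfer RNA, fell from 35.8 ± 2.47 to 24.9 ± 4.31 FPKM (SD, n = 3). Dtd2, another editing enzyme, fell from 6.16 ± 0.171 to 4.43 ± 0.375 FPKM (SD, n = 3). Of 41 tested genes for processing and modification of transfer RNA, 29 fell and 1, Nsun6, rose, against 18 and 2 with median-of-ratios scaling, with a median log2 fold change of -0.33. Trmt1, a guanosine methyltransferase, had a ratio of 0.572, Wdr4, a subunit of the m7G methyltransferase, 0.654 and Tsen34, a subunit of the splicing endonuclease, 0.664.

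Downstream in translation, 5 of 8 cytosolic elongation factors fell and 1, Eef1d, rose, with 2 falls left under median-of-ratios scaling. Beside these counts and those of the lists below, 45.5% of all genes tested fell and 23.3% rose, and 30.2% fell with that scaling. Eef2, the translocation factor, was at 237, 244 and 198 FPKM in the 3 GPR35-negative libraries and at 126, 158 and 146 FPKM in the 3 GPR35-positive ones. Eef1b2, an exchange factor for eEF1A, fell from 152.8 ± 10.4 to 112 ± 5.41 FPKM (SD, n = 3). Eef1d, another exchange factor, went the other way from 1.14, 1.15 and 1.14 FPKM to 4.09, 4.40 and 4.65 FPKM (log2 fold change 1.33, SE 0.08, limma adjusted p = 1.88e-07). Its GPR35-negative values lay just above the filter of 1 FPKM, far below those of Eef1b2. Overlaps with other genes were counted for the members only, so how fully Eef1d was counted is not known. Mitochondrial translation factors had 6 of 10 lower (4 with median-of-ratios scaling) and 0 higher, with ratios of 0.666 for Tsfm and 0.694 for Tufm, the elongation factors, and 0.733 for Mrrf, the ribosome recycling factor. Of 34 initiation factors 20 fell and 5 rose, with a median of -0.23, near the -0.19 of all genes tested, against 12, 6 and -0.09 with median-of-ratios scaling. Eif3h and Eif6 had ratios of 0.688 and 0.718, and Eif5, which triggers GTP hydrolysis on the start codon complex, had 1.54.

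Calls among the amino acid response genes went in both directions, as over all genes tested. Of 31 tested, 18 fell and 6 rose (14 and 6 with median-of-ratios scaling), and the median log2 fold change was -0.37. Over all genes tested 45.5% fell and 23.3% rose, and 30.2% fell with that scaling. Atf4 mRNA itself was at 125, 123 and 123 FPKM in the 3 GPR35-negative libraries and at 113, 122 and 117 FPKM in the 3 GPR35-positive ones, with a ratio of 0.949, and was not called. ATF4 is controlled largely by translation, which these libraries do not measure. Asns, the asparagine synthetase and a standard ATF4 target, fell from 56.9 ± 3.24 to 43.8 ± 3.58 FPKM (SD, n = 3, log2 fold change -0.37, limma adjusted p = 0.00212). Phgdh, the first enzyme of serine synthesis, fell from 751 ± 37.1 to 456 ± 13.7 FPKM (SD, n = 3, limma adjusted p = 7.28e-06).

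In contrast, Slc7a11, the cystine transporter, was at 20.4, 19.3 and 16.9 FPKM in the 3 GPR35-negative libraries and at 100.4, 96.3 and 100.3 FPKM in the 3 GPR35-positive ones (log2 fold change 2.33, SE 0.08, limma adjusted p = 2.56e-09). Ppp1r15a, the phosphatase subunit that reverses eIF2α phosphorylation, rose from 260.2 ± 24.5 to 488 ± 19.4 FPKM (SD, n = 3, limma adjusted p = 3.86e-06). Chac1, Sesn2, Slc3a2 and Cebpb were the other 4 that rose. Summed neutrophil and macrophage markers were 9.85 and 22.7 times as high in the same libraries, and their part in these rises was not tested. Of 7 tested kinases of eIF2α and their regulators, 5 fell and 1 rose, beside 45.5% and 23.3% of all genes tested. Only 1 fell with median-of-ratios scaling, beside 30.2% of all genes. The 1 that rose was Impact, an inhibitor of GCN2, from 9.71 ± 1.88 to 25.3 ± 0.726 FPKM (SD, n = 3), while Gcn1l1, the activator of GCN2, had a ratio of 0.527 and Eif2ak2, the kinase PKR, 0.721, which did not pass under that scaling.

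**Figure D5:**
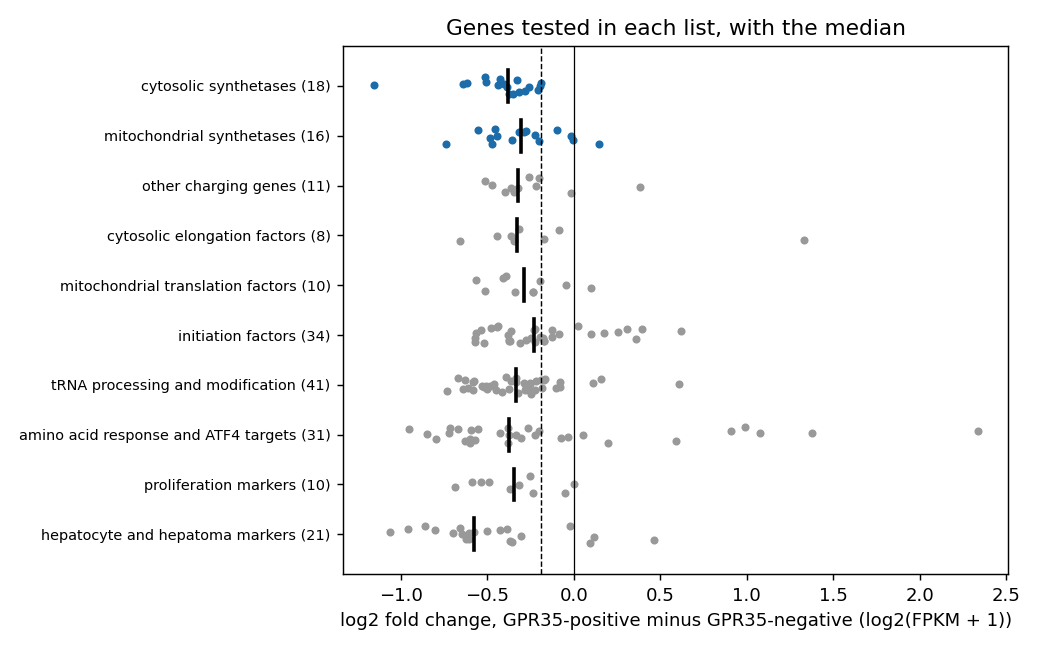
Log2 fold change on the log2(FPKM + 1) scale of each tested gene in the synthetase classes, the related lists and the proliferation and hepatocyte markers, 1 point for each gene, with the list median as a bar and the median of all genes tested dashed at -0.19. No synthetase lies above 0.15, while the amino acid response list spreads up to Slc7a11 at 2.33.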

How the data were processed

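The groups and replicate numbers of the 6 libraries, 3 GPR35-negative and 3 GPR35-positive, were taken from their titles. Per the labels' protocols, Trizol was used to extract RNA and the NEBNext Ultra II kit to prepare libraries. The values are FPKM in a single table that the authors deposited. DESeq 1.38.3, HTSeq 0.9.1, HISAT2 2.1.0 and fastp 0.22.0 are named in the submitters' processing notes, which do not say what each did and give the build as GRCh38, a human one, although the gene IDs are of the mouse. The annotation used by the authors is not given.

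Symbols, positions and exon lengths came from GENCODE M21 (GRCm38), which held 21902 of the 21959 IDs. With those lengths 97.7% of values above 0 were whole reads within 0.02, from which the assigned reads of each library were taken. No libraries were duplicates: between replicates the mean chi-square was 5.65 to 23.2 for each of 9858 genes. limma-trend (limma 3.58.1, R 4.3.3; two-sided) was fitted to log2(FPKM + 1) with a term for group and no other, over genes with at least 1 FPKM in 3 libraries, and p-values were adjusted by Benjamini-Hochberg over all of these. Log2 fold changes are on that scale, which understates low genes. Ratios are of mean FPKM, and SD is over 3 libraries. The fit was tested on simulated data. Tables were handled with Python 3.11.15, numpy 2.4.6, pandas 2.3.3 and scipy 1.17.1, and plots drawn with matplotlib 3.10.9. Promoter sequences are from RefSeq on GRCm38.p6. Overlaps and shared 75-base stretches were counted in GENCODE M21 transcripts.

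Earlier results of these data were known when the members, the other lists and the rule for naming genes were chosen. The rule gave library values for the 4 largest falls and 4 highest fold changes of the cytosolic class, 3 and 3 of the mitochondrial class, the dual enzymes and scaffold proteins, and, from each other list, the 3 smallest adjusted p and a few fixed genes. Vars2, Farsb and the other members named beyond it were added for their values. A gene that the rule takes is not reported here. Alternatives were another pseudocount, other filters, 3 other scalings, limma-voom on the recovered reads, removal of a trend on GC content and length, the replicate number as a block, a minimum change of 2-fold, and each library left out in turn. All 6 value columns were used.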

Additional observations from a re-analysis of the deposited data

How the results depend on the processing

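The members' median log2 fold change of -0.38 stayed below 0 under each alternative. It was -0.42 with 0.1 FPKM added, -0.43 by limma-voom on recovered reads, -0.27 with TMM scaling, -0.25 with median-of-ratios scaling and -0.31 with a trend on GC content and length removed, with or without the block. The cytosolic median was -0.27 with TMM and -0.25 with median-of-ratios scaling, and the mitochondrial median -0.41 by limma-voom. Genes lower numbered 3036 with median-of-ratios scaling, and genes higher 1434 with a filter of 5 FPKM, which left 6231 genes, 28 of them members, and 4 mitochondrial genes called lower. A 2-fold minimum left 1108 genes higher and 21 lower, with 1 member, a cytosolic one, and 0 mitochondrial genes. Of the 30 members called lower, 26 were called in each fit without 1 library that tested them, all but Cars2, Hars2, Nars and Pars2 (Vars2 was under the filter in the 3 fits without a GPR35-negative library), and 21 under every alternative that tested them, the 2-fold minimum apart.

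Without 1 library at a time, members called lower numbered 25 to 31 and higher 0, cytosolic genes lower 14 to 17, mitochondrial genes lower 7 to 11, genes higher 1635 to 2363 and genes lower 3841 to 4457. The medians ranged from -0.39 to -0.36 for members, -0.40 to -0.36 for cytosolic and -0.33 to -0.28 for mitochondrial genes, and their difference from -0.10 to -0.03.

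Some uncalled genes close to 0 changed sign. With median-of-ratios and TMM scaling respectively, log2 fold changes were 0.0655 and 0.0447 for Atf4, 0.0848 and 0.0723 for Mars2, 0.0757 and 0.0626 for Nars2 and 0.0344 and 0.0149 for Rars2. Mars2 was also 0.00309 with 0.1 FPKM added and 0.00111 by limma-voom. Leaving out libraries, Lars2 ranged from -0.00469 to 0.269, Mars2 from -0.0946 to 0.113 and Nars2 from -0.0536 to 0.0286. The cause was not tested.

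The labels do not say whether equal replicate numbers pair libraries. Deviations of same-numbered libraries correlated at -0.0018, 0.40 and -0.06, and only those numbered 2 correlated best with their own number. With 3 libraries in each group these values cannot settle whether the libraries are paired. With a replicate block 31 members were called lower and 0 higher, and with the block and the trend removed 31 lower and 1, Lars2, higher. Depth limits the low genes: the least covered member had 47 reads in a library, and 1 read on 1 kb was worth 0.0546 to 0.0635 FPKM.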

Other observations

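Genes by which mTORC1, the growth-controlling kinase, senses amino acids had a median log2 fold change of 0.01, and 0.13 with median-of-ratios scaling. Of 22 tested, 9 rose and 5 fell, and with that scaling 10 rose and 2 fell. Over all genes tested 23.3% rose and 45.5% fell, and 30.2% fell with that scaling. Fnip2, a partner of folliculin, was at 2.05, 1.96 and 1.48 FPKM in the 3 GPR35-negative libraries and at 16.6, 16.1 and 16.9 FPKM in the 3 GPR35-positive ones (limma adjusted p = 4.12e-09). Its relative Fnip1 was at 4.10, 3.93 and 3.33 FPKM against 15.3, 14.0 and 14.0 FPKM. Rragd, one of the Rag GTPases that bring mTORC1 to the lysosome, was at 0.897, 0.696 and 0.614 FPKM against 6.14, 5.01 and 5.90 FPKM. These 3 genes are shown because they had the smallest adjusted p of the list, so the distance between their groups follows from that choice. Rragd, 1 of the 9 that rose, was under 1 FPKM in every GPR35-negative library. It therefore met the filter of 1 FPKM in 3 libraries only through the GPR35-positive group, where it is high. The macrophage and neutrophil marker sums were 22.7-fold and 9.85-fold higher in the same libraries, and their part in these rises was not tested.

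Of the members, 10 start within 500 bases of a protein-coding gene on the opposite strand, as 14.5% of 10032 tested coding genes do. Hars and Hars2 are each other's partner. Among the other 8 partners, S100pbp beside Yars, Mrps12 beside Sars2, Terf2ip beside Kars and Pms2 beside Aimp2 were called lower, beside 45.5% of all genes tested. The members next to them were called lower too, and whether neighbours move together was not tested. Terf2ip, a telomere protein, was at 5.50 ± 0.596 FPKM (SD, n = 3) in the negative and 3.52 ± 0.472 FPKM (SD, n = 3) in the positive group. Lyrm4 beside Fars2, at 23.3 ± 3.996 and 23.4 ± 2.91 FPKM (SD, n = 3), Tbck beside Aimp1 and Ubfd1 beside Ears2 were not called, while those 3 members were. Orc3 and its neighbour Rars2 were both uncalled.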
